A study of Mus musculus with 6 samples.

Results

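Fanconi anaemia and DNA damage repair genes were examined in LT-HSC, the long-term blood stem cells of the bone marrow, which renew themselves and give rise to every blood lineage. A list of 38 genes was matched by symbol to an annotation of the array's probe sets. A gene was taken from a probe set that names it alone, and from the brightest over the 6 arrays where it had several. This gave 35 genes of the 22180 with such a probe set: 9 of 10 Fanconi genes, 9 of 10 homologous repair genes, 6 of 7 end joining genes, 7 of 7 genes of checkpoints and break sensing, and 4 of 4 genes of base excision and mismatch repair. Fanca had only a probe set shared with Zfp276, and Xrcc2 and Dclre1c, the gene of the Artemis nuclease, were not analysed here. All 35 passed the filter on dim genes, which left 16635 genes to test.

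The study compared 3 arrays of LT-HSC from animals expressing NPMc+, a nucleophosmin mutant found in the cytoplasm, with 3 arrays of LT-HSC from control animals. Each array held RNA from a pool of animals, and the labels do not say whether the pools of a group were sorted separately, so p-values measure the spread between these samples only. Per the labels, all animals were C57/BL6 and all cells were sorted from bone marrow 4 months after a bone marrow transplantation. About 5 ng of total RNA was amplified for each array. The labels used here give neither the promoter nor the cell type that drove the mutant, nor the number, age or sex of the animals in a pool, nor the cells that the hosts retained.

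Cells meet DNA damage with several repair routes. The Fanconi pathway recognises crosslinks that tie the strands of DNA together: a core complex attaches ubiquitin to the pair formed by Fancd2 and Fanci, which then recruits nucleases and homologous repair. Homologous repair copies the broken stretch from the sister chromatid and works mainly in S and G2 phase, whereas end joining ligates broken ends directly and also serves cells that do not divide. Loss of Fanconi genes is known to exhaust blood stem cells, and quiescent stem cells of the mouse are known to rely largely on end joining.

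The values are log2 expression, in which 1 unit is a 2-fold change, and each difference is NPMc+ minus control. The mean of the same-numbered NPMc+ and control arrays was the same for replicates 1, 2 and 3 in 100% of 41345 probe sets, within 0.001 log2 units. A replicate effect had thus been removed before deposit, the spread within a group is the same in both groups, and the 3 differences within pairs hold all the independent spread. With equal pair means, the groups do not overlap where the 3 pair differences have 1 sign, so non-overlap adds nothing to the signs. Among the repair genes, arrays of the groups did not overlap in 9 of 35, 5 higher and 4 lower in NPMc+. They overlapped in the other 26. Of all 16635 genes tested, 2899 did not overlap with NPMc+ higher and 2128 with NPMc+ lower. In limma with the pair as a block, 0 of 16635 genes (0%) passed an adjusted p under 0.05. At an unadjusted p under 0.05, NPMc+ was higher in 5.95% of all genes and lower in 3.02%.

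Some facts of the whole set bear on every result here. Among 14 LT-HSC markers tested, NPMc+ was higher in 8 and lower in 0 at an unadjusted p under 0.05 in limma, and their summed linear level was 3125 to 3348 in NPMc+ against 1872 to 1993 in control. Of 11 B cell markers 7 were lower (sum 4134 to 4774 in NPMc+, 5363 to 6145 in control), of 10 erythroid markers 8 were lower (2609 to 3298 and 3582 to 4583), and of 18 neutrophil and monocyte markers 8 were lower (23140 to 27160 and 28510 to 36070), with 0 higher in each. Among 14 T and NK cell markers 5 were lower and 3 higher (1512 to 1757 and 1563 to 1690), and among 10 megakaryocyte markers 7 were higher and 1 lower (952 to 1292 and 473 to 641). The median difference of the neutrophil and monocyte markers was -0.94, -0.90 and -0.04 log2 units in pairs 1, 2 and 3. Levels on this scale have no true zero, and a linear sum follows mainly the brightest genes of its list. The B cell sum was mostly Cd24a, with means of 12.0 log2 units in NPMc+ and 12.3 in control. Cd24a was not among the 7 (limma unadjusted p 0.256). The largest part of the T and NK cell sum was Nkg7, 1 of the 3 higher, with means of 10.2 and 9.77. The pools also differed in Xist, which coats the silenced X chromosome, by -5.44, -5.39 and 0.48 log2 units in pairs 1, 2 and 3. The part of these shifts in the repair genes was not tested, and in bulk RNA fewer cells of a type and less RNA per cell cannot be told apart.

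The shares of repair genes that differed between NPMc+ and control LT-HSC were near those of all genes. None of the 35 passed an adjusted p under 0.05 in limma, where the background was 0%, and the smallest adjusted p was 0.311. Rad51d, Fancf and Xrcc3 were higher in NPMc+ at an unadjusted p under 0.05, which is 8.57% of the 35 genes against 5.95% of all genes. None was lower, against 3.02% of all genes. In 5 genes NPMc+ was higher in 3 of 3 pairs (14.3%, against 17.4% of all genes), and in 4 it was lower in 3 of 3 pairs (11.4%, against 12.9%). The other 26 genes had differences of both signs. The median difference over the 35 genes was 0.05 log2 units, against 0.03 over all genes tested.

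**Figure D1:**
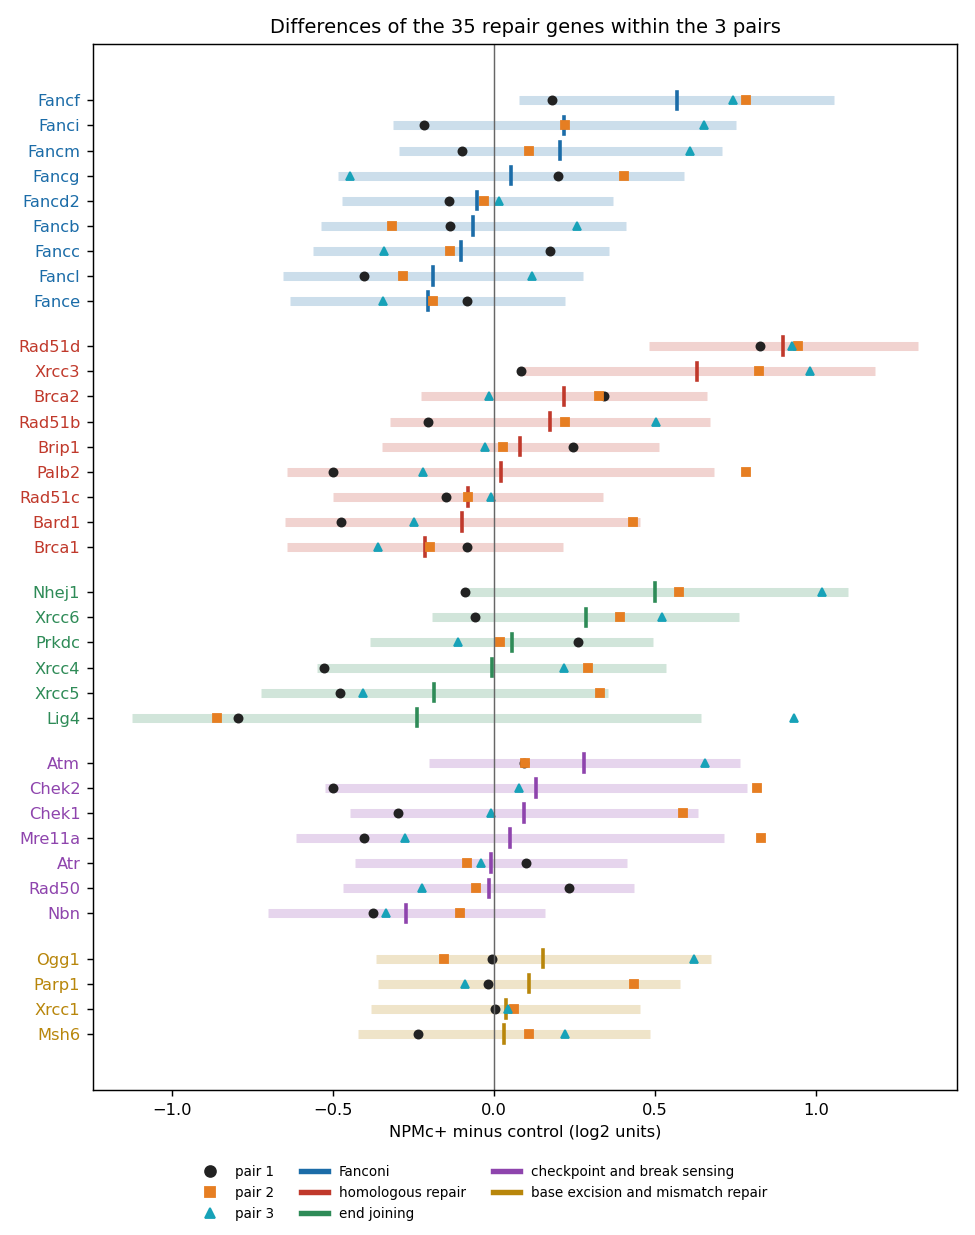
NPMc+ minus control (log2 units, horizontal) for each of the 35 repair genes, with a marker for each pair, a vertical tick for the mean and a shaded bar for limma's 95% interval. The 3 markers of Rad51d lie between 0.83 and 0.94, while those of Lig4 lie between -0.86 and 0.93.

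For most genes the data set a bound on the size of a change. The difference was under 0.3 log2 units in size for 31 of 35 genes. The 95% interval of the limma fit lay within a 2-fold change in either direction for 30 of 35 genes. The median SE of the fit was 0.20 log2 units over the 35 genes and also 0.20 over all genes tested. The shares of all genes within these bounds were not counted. A p above the threshold does not show that the levels were equal.

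**Figure D2:**
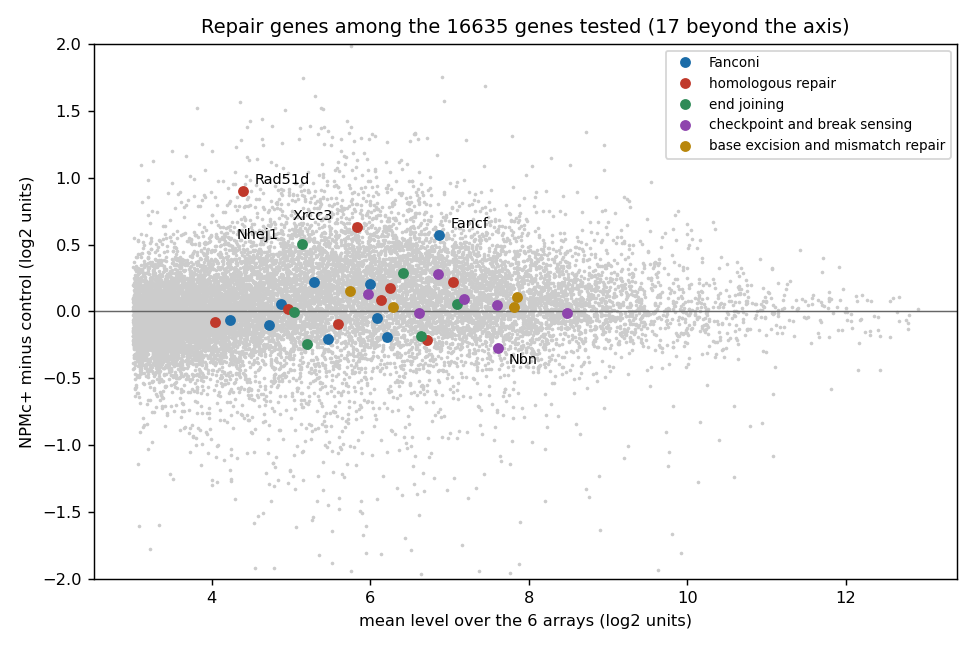
NPMc+ minus control (log2 units, vertical) against the mean level over the 6 arrays (log2 units, horizontal) for the 16635 genes tested (grey) and the 35 repair genes (coloured by group); 17 genes lie beyond the vertical axis. Rad51d stands at 0.90 and Nbn at -0.27, with most of the other repair genes near 0.

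The Fanconi genes comprise the core complex (Fancb, Fancc, Fance, Fancf, Fancg and the ubiquitin ligase Fancl), the anchoring translocase Fancm, and the pair Fancd2 and Fanci. Of the 9 tested, 4 were positive and 5 negative, with a median of -0.05 log2 units. Fancf, an adaptor that links Fancm to the core complex, was the 1 gene of the 9 with an unadjusted p under 0.05 in limma. The background was 5.95% of all genes higher and 3.02% lower. Fancf was higher in NPMc+. It had 6.96, 7.26 and 7.25 log2 units in NPMc+ pools 1, 2 and 3, against 6.78, 6.48 and 6.50 in control pools. The NPMc+ arrays were all above the control arrays, least so in pair 1. The difference was 0.57 ± 0.20 log2 units (SE), or 1.48-fold (95% interval 1.06 to 2.08; limma unadjusted p 0.0291, adjusted p 0.510). Without pair 2 the unadjusted p was 0.111, and without pair 3 it was 0.116.

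The CCAAT box is a short element of promoters. In the homologous repair gene Brip1, with a mean difference of 0.08 log2 units, the promoter held 3 copies, as many as that of Fancf. A link between copies and differences was not tested. The promoter of Fancf is shown because it held several copies. The 300 bases from 250 before to 50 after the RefSeq start (GRCm38.p6, minus strand, chr7:51862218-51862517) are given 5′ to 3′ with each CCAAT in capitals.
Fancf: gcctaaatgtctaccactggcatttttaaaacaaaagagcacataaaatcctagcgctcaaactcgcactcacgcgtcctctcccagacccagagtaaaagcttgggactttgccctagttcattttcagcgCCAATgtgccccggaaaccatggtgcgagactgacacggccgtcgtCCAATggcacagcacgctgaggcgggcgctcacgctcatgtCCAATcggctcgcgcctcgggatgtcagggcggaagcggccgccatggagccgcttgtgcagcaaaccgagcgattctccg

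In the other core genes the groups were close. Fance, which binds Fancd2, had 5.42, 5.37 and 5.29 log2 units in NPMc+ pools against 5.50, 5.56 and 5.63 in control pools. NPMc+ was lower in each pair, by -0.21 ± 0.18 log2 units on average (SE; 95% interval -0.63 to 0.22; limma adjusted p 0.803). Fancl, the ligase, had 6.01, 6.07 and 6.27 in NPMc+ and 6.42, 6.36 and 6.15 in control. It was lower in pairs 1 and 2 and slightly higher in pair 3, so that the arrays overlapped. Fancc differed by 0.17, -0.14 and -0.34 log2 units in pairs 1, 2 and 3, and Fancg by 0.20, 0.40 and -0.45. Fancb, which lies on the X chromosome, differed by -0.14, -0.32 and 0.26 in the pairs where Xist differed by -5.44, -5.39 and 0.48. The mean difference of Fancb was -0.06 ± 0.20 (SE), and a link with Xist was not tested.

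Downstream of the core, Fancd2 hardly varied. Its level was 6.02, 6.08 and 6.10 log2 units in NPMc+ pools and 6.16, 6.11 and 6.08 in control pools, a difference of -0.05 ± 0.18 (SE; 95% interval -0.47 to 0.37). Fanci, its partner, had 5.19, 5.41 and 5.62 in NPMc+ against 5.41, 5.19 and 4.97 in control. The arrays overlapped, with NPMc+ lower in pair 1 and higher in pairs 2 and 3. Fancm showed the same order of pairs, with differences of -0.10, 0.11 and 0.61 log2 units. The unlike differences of Fancd2 and Fanci were not tested against each other.

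Homologous repair genes were described as the Brca1 arm and a second set of Rad51b, Rad51c, Rad51d and Xrcc3. Brca1 and Bard1 form a ubiquitin ligase that promotes resection of ends, Palb2 bridges Brca1 to Brca2, Brca2 acts after resection, and Brip1 is a helicase that binds Brca1. Rad51b, Rad51c and Rad51d belong to a complex that also holds Xrcc2, and Xrcc3 pairs with Rad51c in another. The largest mean difference of the 35 genes, that of Rad51d, was in this second set. Of the 9 tested, 6 were positive and 3 negative, with a median of 0.08 log2 units. Rad51d and Xrcc3, 2 of the 9, were higher at an unadjusted p under 0.05 in limma (background 5.95% of all genes higher and 3.02% lower). The median was -3.6e-04 after quantile normalization.

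Rad51d had 4.82, 4.87 and 4.87 log2 units in NPMc+ pools 1, 2 and 3, against 3.99, 3.93 and 3.94 in control pools. The 3 pair differences had 1 sign, so the groups did not overlap. The within-group SD, the same in both groups, was 0.03 log2 units. NPMc+ was higher by 0.83, 0.94 and 0.93 log2 units in pairs 1, 2 and 3. The mean difference was 0.90 ± 0.17 log2 units (SE), or 1.87-fold (95% interval 1.40 to 2.49; limma unadjusted p 0.00163, adjusted p 0.311). By its p it stood at place 86 of 16635. Without the block, in a fit that counts more degrees of freedom than the values hold, its adjusted p was 0.00831, beside 828 genes called (4.98% of all). The control level of Rad51d was near the median of all probe sets, which lay between 3.90 and 3.99 log2 units on the 6 arrays.

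Xrcc3 had 5.88, 6.25 and 6.33 log2 units in NPMc+ pools, against 5.79, 5.42 and 5.34 in control pools. The arrays did not overlap, but pair 1 differed by only 0.09 log2 units where pairs 2 and 3 differed by 0.82 and 0.98. The mean difference was 0.63 ± 0.23 log2 units (SE), or 1.55-fold (95% interval 1.05 to 2.27; limma unadjusted p 0.0314, adjusted p 0.513). Without pair 2 the unadjusted p was 0.113 and without pair 3 it was 0.148. Klc1, which overlaps Xrcc3 in the RefSeq gene table, differed by -0.25, 0.82 and -0.26 log2 units in the 3 pairs. Other repair genes also overlap a gene there, among them Fancf with Gas2 (0.64, 0.05 and -0.15) and Fanci with Polg (-0.08, 0.32 and 0.86).

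The promoter of Xrcc3 is shown because it held 6 CCAAT boxes, against 3 in that of Fancf; the promoter of Rad51d was not searched (GRCm38.p6, minus strand, chr12:111813830-111814129). It is given 5′ to 3′ with CCAAT or its reverse complement ATTGG in capitals.
Xrcc3: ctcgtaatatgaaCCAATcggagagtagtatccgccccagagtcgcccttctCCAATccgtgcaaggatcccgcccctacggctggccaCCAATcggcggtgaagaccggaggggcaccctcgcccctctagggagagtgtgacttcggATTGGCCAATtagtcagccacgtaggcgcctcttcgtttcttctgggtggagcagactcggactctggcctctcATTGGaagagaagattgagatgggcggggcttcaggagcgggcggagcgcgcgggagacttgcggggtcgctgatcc

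Rad51b and Rad51c did not have an unadjusted p under 0.05 in limma. Rad51c, the partner of both, had 3.97, 4.00 and 4.03 log2 units in NPMc+ pools and 4.11, 4.08 and 4.05 in control pools. NPMc+ was lower in each pair, by at most -0.15 log2 units. Rad51b differed by -0.20, 0.22 and 0.50 log2 units in pairs 1, 2 and 3. Its mean difference of 0.17 ± 0.21 (SE) had a limma adjusted p of 0.861.

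In the Brca1 arm, Brca1 had 6.67, 6.61 and 6.53 log2 units in NPMc+ pools against 6.76, 6.81 and 6.89 in control pools. NPMc+ was lower in each pair, by -0.21 ± 0.18 log2 units on average (SE; limma adjusted p 0.793). Brca2 leaned the other way, with 7.21, 7.20 and 7.03 in NPMc+ and 6.87, 6.88 and 7.05 in control. It was higher in pairs 1 and 2 and level in pair 3, with a mean of 0.22 ± 0.19 (SE; limma adjusted p 0.798). Palb2 and Bard1 changed sign between pairs: Palb2 differed by -0.50, 0.78 and -0.22 log2 units and Bard1 by -0.48, 0.43 and -0.25. Brip1 differed by 0.25, 0.03 and -0.03.

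**Figure D3:**
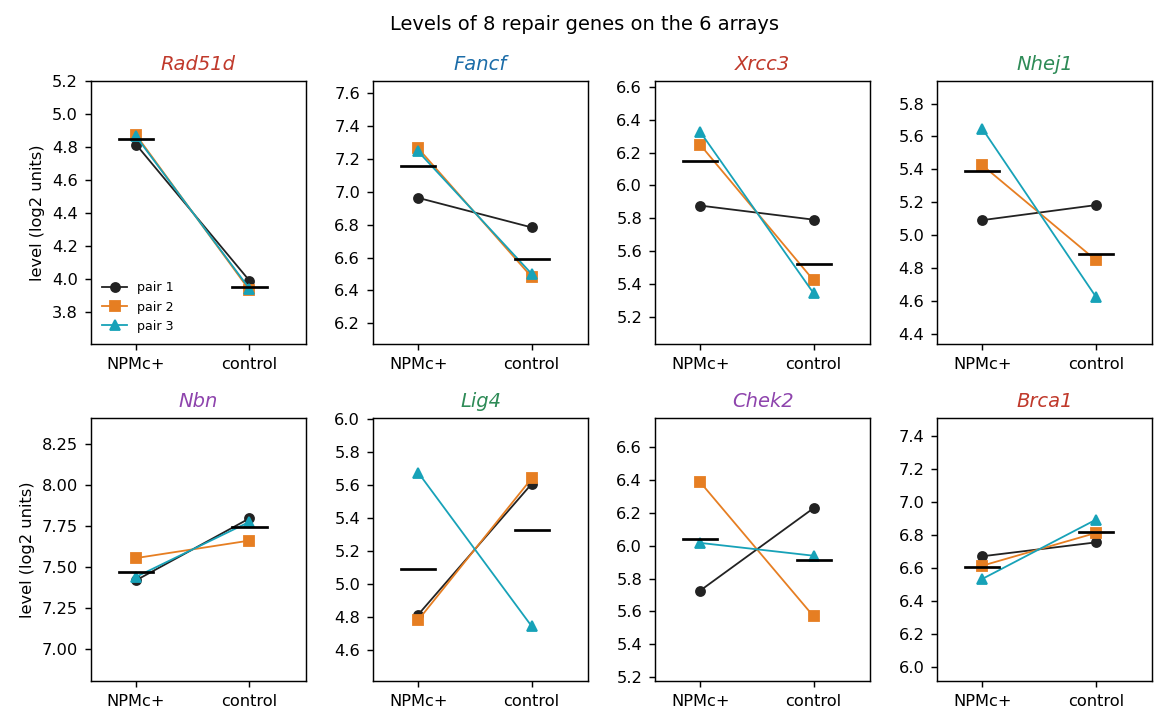
Levels (log2 units, vertical) of 8 repair genes in NPMc+ (left) and control (right) arrays, with a line joining the arrays of a pair and black bars for group means; all panels span the same number of log2 units. Rad51d had NPMc+ arrays at 4.82 to 4.87 and control arrays at 3.93 to 3.99, while the lines of Lig4 and Chek2 slope in both directions.

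End joining starts with the Ku ring of Xrcc5 and Xrcc6, which binds broken ends and recruits the kinase encoded by Prkdc, and ends with ligation by Lig4 and Xrcc4, aided by Nhej1. Of the 6 genes tested, 3 were positive and 3 negative, and none had an unadjusted p under 0.05 in limma in either direction (background 5.95% higher and 3.02% lower). Nhej1 had 5.09, 5.43 and 5.65 log2 units in NPMc+ pools, against 5.18, 4.85 and 4.63 in control pools. It was higher in pairs 2 and 3 and about level in pair 1, so that the arrays overlapped. The mean difference was 0.50 ± 0.25 log2 units (SE), or 1.42-fold (95% interval 0.936 to 2.14; limma unadjusted p 0.0867, adjusted p 0.623). The difference was 0.80 without pair 1, 0.46 without pair 2 and 0.24 without pair 3 (limma unadjusted p 0.0262, 0.194 and 0.407, adjusted p 0.585, 0.814 and 0.925).

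Neither Ku subunit passed the unadjusted threshold. Xrcc6 had 6.38, 6.60 and 6.67 log2 units in NPMc+ pools and 6.44, 6.21 and 6.15 in control pools. Xrcc5 had 6.40, 6.80 and 6.43 in NPMc+ and 6.88, 6.47 and 6.84 in control. Arrays of the groups overlapped for both, and the mean differences were 0.28 ± 0.20 for Xrcc6 and -0.19 ± 0.22 for Xrcc5 (SE).

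Lig4 was the most uneven of the 35 genes. Its level was 4.81, 4.78 and 5.68 log2 units in NPMc+ pools, against 5.61, 5.64 and 4.74 in control pools. NPMc+ was lower by -0.79 and -0.86 in pairs 1 and 2 and higher by 0.93 in pair 3, for a mean of -0.24 ± 0.37 (SE; limma adjusted p 0.894). The difference was 0.04 without pair 1, 0.07 without pair 2 and -0.83 without pair 3, the pair of opposite sign (limma unadjusted p 0.939, 0.874 and 0.0113, adjusted p 0.992, 0.987 and 0.453). The p without pair 3 follows from leaving out the pair of opposite sign and adds no support for a fall. Pair 3 is the pair in which Xist did not differ by more than 0.48 log2 units, and the part of pool composition in the Lig4 values was not tested. Its partner Xrcc4 differed by -0.53, 0.29 and 0.22 in the 3 pairs, and Prkdc by 0.26, 0.02 and -0.11.

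The genes of break sensing and checkpoints include the complex of Mre11a, Rad50 and Nbn that binds broken ends and activates the kinase Atm, the kinase Atr that answers stalled forks, and their effector kinases Chek2 and Chek1. Of the 7, 4 were positive and 3 negative, and none had an unadjusted p under 0.05 in limma (background 5.95% higher and 3.02% lower). Atm, with the highest mean difference of the 7, had 6.91, 6.91 and 7.19 log2 units in NPMc+ pools and 6.81, 6.81 and 6.53 in control pools. The groups did not overlap, yet the difference was 0.09 and 0.10 in pairs 1 and 2 against 0.65 in pair 3 (mean 0.28 ± 0.20, SE; limma adjusted p 0.749). Atr had 6.66, 6.57 and 6.59 in NPMc+ and 6.57, 6.66 and 6.64 in control, a difference of -0.01 ± 0.18 (SE). A dimmer probe set of Atr differed by 0.02 log2 units; a further probe set of Fancl, shared with Vrk2, was not used.

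No subunit of the end-binding complex passed the unadjusted threshold. Nbn had 7.42, 7.56 and 7.44 log2 units in NPMc+ pools against 7.80, 7.66 and 7.78 in control pools. NPMc+ was lower in each pair, by -0.27 ± 0.18 on average (SE; 95% interval -0.70 to 0.16; limma adjusted p 0.722), the lowest mean difference of the 35 genes. Mre11a had 7.39, 8.01 and 7.46 in NPMc+ and 7.80, 7.18 and 7.73 in control, so that NPMc+ was higher in pair 2 and lower in pairs 1 and 3. Rad50 had the highest signal of the 35, with 8.60, 8.46 and 8.37 in NPMc+ and 8.37, 8.51 and 8.60 in control, and a difference of -0.02 ± 0.19 (SE).

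The effector kinases varied mainly between pairs. Chek2 had 5.73, 6.39 and 6.02 log2 units in NPMc+ pools against 6.23, 5.57 and 5.94 in control pools. Chek1 had 7.04, 7.48 and 7.18 in NPMc+ and 7.34, 6.90 and 7.19 in control. In both genes NPMc+ was lower in pair 1, higher in pair 2 and within 0.08 log2 units of control in pair 3.

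The 4 genes of base excision and mismatch repair were close to level. Xrcc1, the scaffold of single-strand break repair, was the least variable of the 35 genes, with 6.30, 6.33 and 6.32 log2 units in NPMc+ pools and 6.29, 6.26 and 6.27 in control pools. NPMc+ was above control in each pair, by 0.04 ± 0.17 on average (SE; 95% interval -0.38 to 0.45), but the mean difference was -0.05 after quantile normalization. Parp1, which senses strand breaks, had 7.85, 8.07 and 7.81 in NPMc+ and 7.86, 7.64 and 7.90 in control. Ogg1, the glycosylase that removes oxidised guanine, had 5.75, 5.67 and 6.06 in NPMc+ and 5.75, 5.83 and 5.44 in control. The mismatch sensor Msh6 had 7.70, 7.87 and 7.93 in NPMc+ and 7.93, 7.76 and 7.71 in control. Arrays of the groups overlapped for Parp1, Ogg1 and Msh6, and the differences were 0.11 ± 0.20, 0.15 ± 0.22 and 0.03 ± 0.19 (SE).

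The repair genes were uneven between pairs. In pair 1, 12 of 35 genes were higher in NPMc+, in pair 2 it was 23 and in pair 3 it was 18 (34.3%, 65.7% and 51.4%, against 50.4%, 54.5% and 53.0% of all genes tested). More than 0.5 log2 units higher in NPMc+ were 1 gene in pair 1, 8 in pair 2 and 11 in pair 3 (2.86%, 22.9% and 31.4%, against 8.78%, 20.2% and 15.2% of all genes). More than 0.5 log2 units lower were 3, 1 and 0 genes (8.57%, 2.86% and 0%, against 7.69%, 11.2% and 11.2% of all genes). Rad51d was the 1 gene of the 35 above 0.5 log2 units in all 3 pairs, and the share of all genes above it in all 3 was not counted. End joining genes had a median of -0.28 log2 units in pair 1, 0.31 in pair 2 and 0.37 in pair 3. Genes of checkpoints and break sensing had -0.30, 0.10 and -0.04, homologous repair genes -0.08, 0.33 and -0.02, and Fanconi genes -0.10, -0.03 and 0.12. No direction is given for the medians over all pairs, which lay between -0.05 and 0.08 log2 units for the 5 groups.

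Cell cycle genes varied between the pairs too. Of 22 G1/S and replication genes, 5 were higher in NPMc+ in pair 1, 18 in pair 2 and 8 in pair 3. These are 22.7%, 81.8% and 36.4%, against 50.4%, 54.5% and 53.0% of all genes tested. The medians were -0.15, 0.17 and -0.07 log2 units. Of 19 G2/M genes, 4, 13 and 7 were higher (21.05%, 68.4% and 36.8%), with medians of -0.18, 0.18 and -0.19. The replication helicase gene Mcm5, far above its list's median in pair 2, differed by -0.40, 1.02 and -0.07. This order, highest in pair 2 and lowest in pair 1, was also seen in Mre11a (-0.40, 0.83 and -0.28), Palb2, Bard1, Chek1 and Chek2. It held as well in Rad51d, Fancf, Xrcc1, Xrcc4, Xrcc5 and Nbn. All were picked after their values were seen, and the share of all genes with this order was not counted. Other repair genes had another order. Brca2 (0.34, 0.33 and -0.02), Brip1, Rad50 and Prkdc were among those highest in pair 1. Many were highest in pair 3, among them Fanci (-0.22, 0.22 and 0.65), Fancm, Fancl, Rad51b and Xrcc3. Xrcc6, Nhej1, Lig4, Atm, Ogg1 and Msh6 were also highest in pair 3. Over all 3 pairs NPMc+ was higher in 0 and lower in 1, Ccne1, of the 22 G1/S genes (unadjusted p under 0.05 in limma), with a median of -0.02, and 0 of the 19 G2/M genes passed in either direction. The part of cycling cells in the pair differences of repair genes was not tested.

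**Figure D4:**
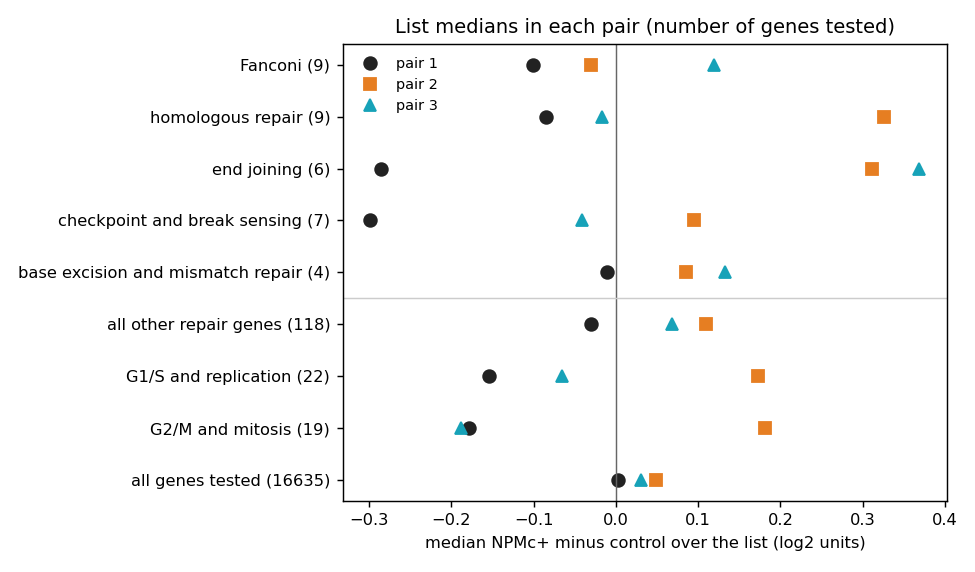
Median NPMc+ minus control (log2 units, horizontal) over each list in pairs 1, 2 and 3, for the 5 groups of repair genes, other repair genes, cell cycle lists and all genes tested, with the number of genes in brackets. In pair 2 the medians of homologous repair and G1/S genes were 0.33 and 0.17, and in pair 1 they were -0.08 and -0.15.

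Many repair genes are known targets of E2F factors, which act at the entry to S phase. Promoters were searched on both strands for the E2F-like words TTTCCCGC, TTTGGCGC, TTTCGCGC and TTTGCCGC, the box CCAAT and the element TTTGAA of genes of late cycle phases. RefSeq promoters of 300 bases were at hand for 32 of the 38 genes. An E2F-like word stood in 7 of 32 (21.9%), those of Fancg, Brca2, Bard1, Rad51c, Xrcc6, Chek2 and Msh6, against 2.92% of protein-coding genes and 2.32% of all genes. CCAAT stood in 20 of 32 (62.5%, against 39% of protein-coding genes), and TTTGAA in 1 of 32 (3.12%, against 16.5%). These words can overlap in a promoter, and a match is neither a binding site nor a cause.

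Pair 2 differences of the 7 genes with an E2F-like word ran from -0.08 log2 units in Rad51c to 0.82 in Chek2. Of the 8 genes above 0.5 log2 units in pair 2, Chek2 held such a word, 6 held none of the words searched and Rad51d was not searched. In Chek1, 1 of the 6, the searched stretch ended inside a possible match, so a word there could have been missed. The promoters of Chek2 and Bard1 are shown as examples that hold the word, chosen after their values were seen, with all searched words in capitals, 5′ to 3′ (GRCm38.p6; Chek2 on the plus strand at chr5:110839733-110840032, Bard1 on the minus strand at chr1:71102923-71103222).
Chek2: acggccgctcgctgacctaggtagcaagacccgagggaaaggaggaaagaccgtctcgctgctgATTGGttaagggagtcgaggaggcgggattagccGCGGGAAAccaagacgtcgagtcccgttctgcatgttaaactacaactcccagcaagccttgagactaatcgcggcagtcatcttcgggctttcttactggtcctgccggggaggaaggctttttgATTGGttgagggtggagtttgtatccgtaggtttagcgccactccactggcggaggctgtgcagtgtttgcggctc
Bard1: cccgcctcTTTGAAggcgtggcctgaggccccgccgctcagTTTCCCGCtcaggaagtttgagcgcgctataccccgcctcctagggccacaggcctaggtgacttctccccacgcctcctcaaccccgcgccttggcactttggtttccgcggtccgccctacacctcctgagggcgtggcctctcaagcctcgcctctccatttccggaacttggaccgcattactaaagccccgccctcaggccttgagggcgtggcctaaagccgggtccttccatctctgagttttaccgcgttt
On the shown strand of Chek2 the word is read as GCGGGAAA, the reverse complement of the word in Bard1.

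Beyond the 38 genes, 118 of 138 other repair genes were tested, and 0 passed an adjusted p under 0.05 in limma (smallest adjusted p 0.425). At an unadjusted p under 0.05, 5 were higher (4.24%, against 5.95% of all genes) and 3 lower (2.54%, against 3.02%). Of 17 nucleotide excision repair genes 3 were higher and 0 lower: the damage sensor Xpc by 0.63 ± 0.19 log2 units, Mnat1, a subunit of the kinase in the TFIIH complex, by 0.57 ± 0.17, and Ercc6, which couples repair to transcription, by 0.56 ± 0.20 (SE). The ubiquitin ligase Rnf8, which acts around breaks below Atm, was higher by 0.62 ± 0.19, 1 of 23 other checkpoint genes. The glycosylase Mbd4 was higher by 0.58 ± 0.22, 1 of 14 other base excision genes.

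The 3 lower genes stood in homologous repair and end joining. Rmi2, a subunit of the Blm helicase complex, was lower by -0.66 ± 0.18 log2 units, and Gen1, a nuclease that resolves crossed strands, by -0.64 ± 0.20 (SE), 2 of 26 other homologous repair genes. Dntt, the polymerase that adds bases at the joints of antigen receptor genes in lymphoid precursors, was lower by -0.63 ± 0.21, 1 of 14 other end joining genes. B cell markers were lower in the same samples, with 7 of 11 at an unadjusted p under 0.05, and their part in Dntt was not tested. Of 10 other Fanconi pathway genes and 4 other mismatch repair genes none passed an unadjusted p under 0.05 in limma.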

How the data were processed

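The authors deposited 1 table of log2 expression values for 41345 probe sets on 6 arrays. The submitters' processing notes name RMA, which corrects background, normalizes arrays and summarises probes; no source used here gives its version or later steps. Depth does not apply to arrays, whose number limits the precision. Array medians were 3.90 to 3.99.

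Groups and replicate numbers came from the sample titles. Of the probe sets, 23521 had 1 symbol in the platform annotation, 1814 several and 16010 none; the brightest stood for each of 22180 genes. The 25th percentile of the mean level (3.01 log2 units) was the lower limit for testing. The remaining 16635 were fitted with limma 3.58.1 (R 4.3.3) with the replicate number as a block (2 residual and 4.537 prior degrees of freedom). P-values are two-sided and Benjamini-Hochberg adjusted p-values run over the whole tested table, at a threshold of 0.05. The numbers were taken to pair the arrays because a replicate effect by these numbers was removed before deposit. The correlation between arrays of 1 number, each taken as its deviation from its group mean, was -1 in 3 of 3 pairs. This -1 follows from the equal pair means and does not show that pools of 1 number were handled together. The fit was checked on simulated data. Alternatives were no block, each pair left out, quantile normalization, centred array medians, no filter, a filter at the 50th percentile, an intensity trend in limma and the mean of a gene's probe sets. No gene set test was made. Marker sums add 2 to the power of each value.

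The members, lists, block and motifs were chosen with earlier results of these data known. Values per array are given for genes at an unadjusted p under 0.05, for genes of 1 sign in the pairs with a mean of at least 0.3 log2 units, for the gene with the largest difference of each group, and for further members chosen after their values were seen. Promoters came from a RefSeq table of GRCm38.p6, taking the first listed for each gene; the labels name no build. Plots used Python 3.11.15 and matplotlib 3.10.9.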

Additional observations from a re-analysis of the deposited data

How the results depend on the processing

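A set of 10 alternatives were run beside the blocked limma fit. Without the replicate block, 1 of the 35 genes (Rad51d) passed an adjusted p under 0.05 and 7 an unadjusted p under 0.05, with 25 of the other repair genes; that fit counts residual degrees of freedom that the paired values do not hold. In the other 9 alternatives 0 of the 35 passed the adjusted threshold, with a smallest adjusted p of 0.289 to 0.523. When 1 pair was left out, 1 (without pair 2) to 4 (without pair 1) of the 35 genes and 4 (without pair 3) to 11 (without pair 2) of the other repair genes had an unadjusted p under 0.05. The median of the checkpoint and break sensing genes was -0.154 without pair 2 and 0.277 without pair 1, against 0.05 with all pairs. That of the base excision and mismatch genes was -0.0157 without pair 3 and 0.169 without pair 1, against 0.07. Over the same fits the Fanconi median ran from -0.0624 to 0.00128, that of homologous repair from 0.109 to 0.155 and that of end joining from 0.0324 to 0.145. After quantile normalization the medians of end joining and checkpoint genes were -0.0367 and -0.00552. The cause was not tested, and each such fit holds fewer samples. Rad51d kept an unadjusted p under 0.05 in all 10 alternatives, with differences of 0.877 to 0.935 log2 units; Fancf and Xrcc3 lost it without pair 2 and without pair 3. Signs of single differences changed in 11 of 35 genes without pair 2 and in 5 without pair 1 or pair 3, none with a difference over 0.241 log2 units in size with all pairs. Rad51c was below the filter at the 50th percentile.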
